A study of Mus musculus with 6 samples.

Results

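The receptors described here are 10 inhibitory or paired myeloid receptors of eosinophils: the sialic acid-binding lectins Siglec-F, Siglec-E, Siglec-G and CD33 (genes Siglecf, Siglece, Siglecg and Cd33), the CD300 receptors Cd300a and Cd300lf, the paired immunoglobulin-like receptor Pirb, the leukocyte immunoglobulin-like receptor Lilrb4a, the paired receptor Pilra and the CD47 receptor Sirpa. They were taken by gene symbol from a table of 16254 genes, in which all 10 were present. All 10 also passed the filter on low counts, among 13498 genes tested. Eosinophils were differentiated from the bone marrow of C57BL/6 mice aged 6 to 12 weeks and were treated on culture day 12 for 24 h. The 3 EV-treated cultures received 5e9 activated TH2 cell EVs per ml, that is, vesicles purified by size exclusion chromatography from the medium of restimulated TH2 cells. The 3 sham-treated cultures received unconditioned medium taken through the same purification. Both groups had the same genotype. The labels name biological replicates without saying whether each came from its own animal, so that p-values measure the spread between these cultures.

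Inhibitory receptors of this kind carry short tyrosine motifs in their cytoplasmic tails, called ITIMs (immunoreceptor tyrosine-based inhibitory motifs). Once phosphorylated by SRC-family kinases such as LYN, an ITIM recruits the phosphatases SHP-1, SHP-2 or SHIP-1, which oppose activating signals. Many of these genes are paired with a close relative that has a similar outer part but a short tail, and that signals through an activating adaptor such as DAP12 or the Fc receptor gamma chain. In eosinophils, Siglec-F is the standard surface marker of the mouse cell, and its cross-linking promotes cell death. CD300a and CD300f bind lipids exposed on dying cells and PIR-B binds MHC class I molecules.

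The motifs themselves are shown first, since they are what makes a receptor of this group inhibitory. Each line gives coding DNA of a GENCODE vM21 transcript, 5′ to 3′, with the 6 codons of an ITIM in capitals and 9 bases on each side in lower case. An ITIM was taken as isoleucine, valine, leucine or serine, then any residue, tyrosine, any 2 residues, and isoleucine, leucine or valine, read after the most hydrophobic window of 19 codons.
Siglecg: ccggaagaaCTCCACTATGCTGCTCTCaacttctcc
Siglecf: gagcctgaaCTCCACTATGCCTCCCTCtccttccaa
Siglece: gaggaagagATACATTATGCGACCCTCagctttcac
Cd300lf: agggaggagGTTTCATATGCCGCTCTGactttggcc
Cd300a: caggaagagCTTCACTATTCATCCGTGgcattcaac
Pirb: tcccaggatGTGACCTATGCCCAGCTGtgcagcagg
Lilrb4a: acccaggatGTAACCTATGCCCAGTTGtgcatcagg
Pilra: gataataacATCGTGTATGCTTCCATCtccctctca
Sirpa: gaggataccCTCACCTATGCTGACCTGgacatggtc

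Within the 18 capital bases, Siglecf and Siglecg matched at 15, Siglecf and Siglece at 13, and Pirb and Lilrb4a at 16. Only 1 ITIM of each gene is printed, and these matches do not hold for all pairs. The other ITIM pairs matched at 6 to 15 bases for Siglecf and Siglecg, and at 7 to 11 for Pirb and Lilrb4a. The other pair of Siglecf and Siglece matched at 5. The tail held 3 ITIMs in Siglecg, Pirb and Sirpa, 2 in Siglecf, Cd300a, Cd300lf and Lilrb4a, and 1 in Siglece and Pilra. The related ITSM (immunoreceptor tyrosine-based switch motif) was found once each in Siglece, Cd300lf, Pilra and Sirpa. In Cd33 neither motif was found in the 135 codons after the hydrophobic window, so that the word inhibitory was not borne out by this search for that gene. Mouse CD33 is known to differ from its human counterpart in the tail. No ITIM or ITSM was found in the short tails of the relatives Pira2 and Lilra6, each of 15 codons, or in those of Cd300lb, Cd300c2 and Pilrb1, of 33, 21 and 9 codons. A match describes the sequence and was not tested as a binding site.

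In the mouse genome (mm10), the 4 Siglec genes lie together on chromosome 7, with Siglecf at chr7:43351341-43359531 and Siglecg at chr7:43408204-43418358 on the forward strand and Cd33 at chr7:43524216-43544428 and Siglece at chr7:43651070-43660161 on the reverse strand. Pirb lies at chr7:3711409-3720391 on the reverse strand. Cd300a, on the forward strand at chr11:114890041-114904654, and Cd300lf, on the reverse strand at chr11:115116214-115133992, lie at opposite ends of the CD300 cluster. Lilrb4a lies at chr10:51490956-51496611 and Sirpa at chr2:129592835-129632228, both on the forward strand, and Pilra at chr5:137821952-137836281 on the reverse strand. The capital bases printed for Siglecg are exonic, at chr7:43417979-43417996 in coding exon 11 of 11, and those for Siglecf at chr7:43358670-43358687 in coding exon 9 of 9. All the other printed motifs were also in the last coding exon of their transcript.

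The libraries held between 23697620 and 37874426 counts. Eosinophil identity was borne out by the granule gene Prg2, at 558760 to 717370 normalized counts in sham-treated and 712820 to 777590 in EV-treated cultures, and of 12 eosinophil markers tested, Siglecf among them, 8 rose, 0 fell and 4 did not pass. Markers of other cells moved between the groups. Of 17 macrophage and monocyte markers tested, 12 fell and 2 rose, with a median log2 fold change of -2.48. Their summed normalized counts were 110715 to 170003 in sham- against 74212 to 84198 in EV-treated cultures. The 2 that rose were Adgre1, at a mean of 21326 in sham- and 32764 in EV-treated cultures, and Ly6c2, at 10910 and 27641. They made up most of the EV-treated sums, so that the sums understate the fall of the other markers. No marker that was among the counted genes was at 0 in all 6 libraries. Some listed markers of eosinophils, neutrophils, mast cells, T cells and dendritic cells were not among the counted genes. Of 9 mast cell and basophil markers tested, 7 rose and 0 fell, with a median of 1.55. The sums were 10817 to 13856 against 43273 to 46270. Cyp11a1 alone, at a mean of 4869 in sham- and 28939 in EV-treated cultures, made up most of the EV-treated sums. Kit and Fcer1a did not pass. Neutrophil markers were mixed, with 2 higher and 6 lower of 13 and sums of 23003 to 26524 against 20686 to 24624. T cell markers gave 2 lower of 4, with sums of 1393 to 2770 against 351 to 567. The 2 were Il7r, at a mean of 1612 in sham- and 362 in EV-treated cultures, and Cd28, at 559 and 42.4. These 2 genes made up most of the sums. Cd3d did not pass, at means of 38.3 and 48.4. The T cell genes Cd3g, Cd247, Cd4, Trac, Lck, Cd5 and Thy1 were below the filter on low counts. Of the B cell and dendritic cell markers, 0 of 6 and 0 of 6 passed. Several receptors described here are also made by macrophages, mast cells or basophils. The part of these cells in the receptor values was not tested, and in bulk samples fewer cells of a type and less RNA per cell cannot be told apart.

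EV treatment was accompanied by higher transcript levels of most of these receptors. By the quasi-likelihood test of edgeR, with calls below an adjusted p of 0.01, 7 of the 10 genes rose and 0 fell, while Sirpa, Cd300a and Pilra did not pass. Among all genes tested, 23.7% passed in either direction, 12.1% as higher and 11.6% as lower. A rise of at least 1 on the log2 scale was called for 4 of the 10, Siglecg, Lilrb4a, Cd300lf and Siglece, against 3.10% of all genes, and a fall of that size for 0 of the 10, against 6.35%. The median log2 fold change of the 10 receptors was 0.83, against -0.014 over all genes tested. Sham- and EV-treated cultures did not overlap for any of the 10 genes, a separation that 49.6% of all genes shared. It was towards higher values for 8 of the 10, against 24.8% of all genes. Normalized counts summed over the 10 receptors were 108947, 106251 and 107817 in sham-treated cultures 1 to 3 and 190200, 188173 and 193150 in EV-treated cultures 1 to 3, so that the receptors together took up more of every EV-treated library.

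**Figure D1:**
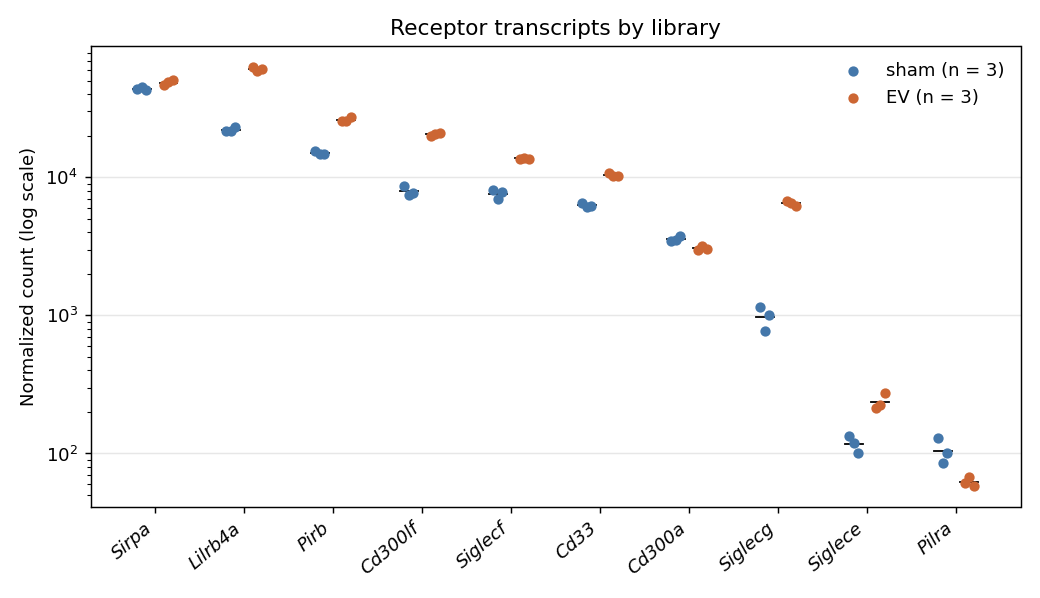
Normalized counts (log axis) of the 10 receptor genes in each of the 3 sham-treated (blue) and 3 EV-treated (orange) cultures, with group means as black bars. The EV-treated points lie above the sham points for every gene but Cd300a and Pilra (the Sirpa difference turned negative with libraries scaled by their totals alone), and Siglecg shows the widest gap, from a mean of 974 to 6482.

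Siglecg, a sialic acid-binding receptor best known for restraining B cell receptor signalling, had the widest change of the 10. Its normalized counts were 1152, 767 and 1002 in sham-treated and 6770, 6469 and 6207 in EV-treated cultures. The lowest EV-treated culture was thus far above the highest sham-treated one. The fold change was 6.64 (log2 2.73, SE 0.128, adjusted p = 2.62e-07), and it ranged from 2.59 to 2.88 on the log2 scale as each culture in turn was left out. Siglecg shares 11.1% of its 31-base words with another annotated gene, which is not a row of the table.

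Siglecf, the eosinophil marker receptor, went from 8092, 6994 and 7802 to 13681, 13920 and 13696 normalized counts. All 3 EV-treated cultures were close together and above all sham-treated ones. The fold change was 1.8 (log2 0.85, SE 0.0638, adjusted p = 5.26e-06). Cd33, whose product also binds sialic acid, stood at 6490, 6151 and 6222 in sham- and 10841, 10268 and 10223 in EV-treated cultures, a rise of 0.73 on the log2 scale (SE 0.0554, adjusted p = 5.67e-06). Both rises stayed under 1 on the log2 scale.

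Siglece, a Siglec of neutrophils and monocytes, rested on low counts. Its normalized counts were 135, 119 and 101 in sham-treated and 212, 225 and 276 in EV-treated cultures. The log2 fold change was 1.00 (SE 0.205, adjusted p = 0.00357), the least certain of the 7 rises. Without sham-treated culture 3, EV-treated culture 2 or EV-treated culture 3 the adjusted p was 0.0121, 0.0146 and 0.0287, above the threshold, with the direction kept.

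As a result, the make-up of Siglec transcripts differed between the groups. Siglecg accounted for 6.27% ± 0.933 (SD, n = 3) of the normalized counts of the 7 rows named Siglec or Cd33 under sham treatment, and for 20.9% ± 0.538 (SD, n = 3) with EVs. The share of Siglecf went from 49.3% ± 1.15 to 44.4% ± 0.935 and that of Cd33 from 40.7% ± 1.29 to 33.7% ± 0.597 (SD, n = 3 each), although both genes rose. With the Siglecs Cd22 and Mag counted too, 9 rows in all, the share of Siglecg was 5.91% ± 0.886 and 20.4% ± 0.523, that of Siglecf 46.5% ± 1.06 and 43.4% ± 0.95, and that of Cd33 38.4% ± 1.27 and 32.9% ± 0.547 (SD, n = 3 each). Siglec1, the macrophage adhesion receptor sialoadhesin, which lacks an ITIM, moved the other way. Its normalized counts were 316, 538 and 469 in sham- and 59.9, 66.9 and 67.0 in EV-treated cultures (log2 fold change -2.77, adjusted p = 9.43e-06). Siglec1 thus fell together with the macrophage markers above.

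Among the CD300 receptors the response was split. Cd300lf encodes CD300f, an inhibitory receptor for phosphatidylserine and other lipids that also interacts with the IL-4 receptor. It went from 8641, 7413 and 7696 to 20038, 20445 and 21030 normalized counts, and no EV-treated culture came near the sham range. The fold change was 2.59 (log2 1.37, SE 0.0665, adjusted p = 3.43e-07). Cd300a, the other inhibitory member, had 3447, 3544 and 3741 normalized counts in sham- and 2981, 3162 and 3041 in EV-treated cultures. These groups did not overlap, yet the log2 fold change of -0.22 (SE 0.0625) had an adjusted p of 0.0184 and did not pass. It did pass as lower with DESeq2 (-0.22, adjusted p = 0.00738), with upper quartile scaling (-0.27, adjusted p = 0.00712) and with library totals alone (-0.37, adjusted p = 0.00113).

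Of the short-tailed CD300 relatives, Cd300lb, an activating receptor that works with DAP12 and was named after its values were seen, rose slightly, by 0.32 on the log2 scale (adjusted p = 0.00158). Cd300c2 fell from 1286, 1522 and 1522 to 366, 369 and 413 normalized counts (log2 fold change -1.91, adjusted p = 7.63e-07). Over the 11 CD300 rows, Cd300lf made up 35.0% ± 2.42 of the counts in sham- and 58.6% ± 0.497 in EV-treated cultures, and Cd300a 15.8% ± 0.726 and 8.75% ± 0.287 (SD, n = 3 each). Cd300lf thus took the larger part of CD300 counts in every EV-treated culture. These shares are of counts and not per length, as are those of the other families.

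**Figure D2:**
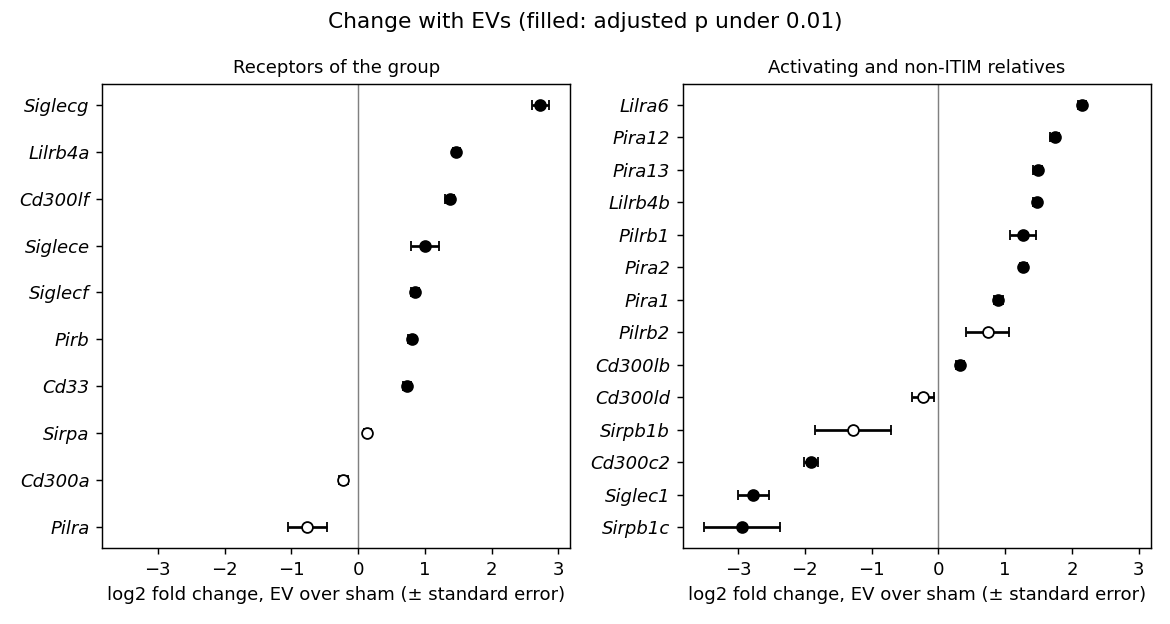
Log2 fold change, EV over sham, with its standard error for the 10 receptors (left) and for 14 tested relatives that activate or lack an ITIM (right), from edgeR's quasi-likelihood test over 3 sham- and 3 EV-treated cultures, with filled points at an adjusted p under 0.01. Receptors run from Pilra at -0.76 to Siglecg at 2.73, and relatives from Sirpb1c at -2.94 to Lilra6 at 2.15.

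Pirb, the inhibitory receptor for MHC class I molecules, had 15408, 14677 and 14883 normalized counts in sham- and 25629, 25559 and 27224 in EV-treated cultures. Its fold change was 1.74 (log2 0.80, SE 0.0523, adjusted p = 2.22e-06). The activating PIR-A relatives, which lack the ITIMs printed above and pair with the Fc receptor gamma chain, rose as well. Lilra6 went from 4097, 3729 and 3887 to 17407, 16926 and 17821 normalized counts (log2 fold change 2.15, SE 0.0591, adjusted p = 1.03e-08). Pira2 went from 2989, 3091 and 3022 to 7421, 7280 and 7322 (log2 fold change 1.27, adjusted p = 1.58e-07). Pira12, Pira13 and Pira1, named after their values were seen, rose by 1.74, 1.49 and 0.90 on the log2 scale (adjusted p = 8.22e-08, 2.33e-07 and 9.77e-06), and the related gene model Gm15931 by 2.03 (adjusted p = 4.68e-05). Gm10693, with at most 43.5 normalized counts, did not pass (log2 fold change 1.64, adjusted p = 0.201).

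Pirb therefore took a smaller share of the family in EV-treated cultures. Of the normalized counts of 10 PIR rows, it held 53.5%, 53.0% and 53.4% in sham- and 37.3%, 37.9% and 37.8% in EV-treated cultures, or 53.3% ± 0.251 against 37.7% ± 0.314 (SD, n = 3). The share of Pira1 was also smaller, at 4.93% ± 0.407 against 3.71% ± 0.231, while that of Pira2 overlapped between the groups, at 10.8% ± 0.396 against 10.6% ± 0.366 (SD, n = 3 each). For Pirb the groups did not overlap, and the difference of -15.6 percentage points had an exact two-sided permutation p of 0.1, the smallest that 3 against 3 cultures allow. Of the 31-base words of Pirb, 45.5% are found elsewhere among annotated genes, 28.6% with the gene model Gm14548, 27.8% with Pira2 and 22.1% with Lilra6. The split of reads within the family is therefore uncertain. Gm14548 and some other gene models sharing over 10% of the words were not matched to a counted gene. Counts summed over Pirb and its 4 matched close relatives by gene identifier rose by 1.23 on the log2 scale (adjusted p = 9.98e-08), and those summed over the family by symbol by 1.30 (adjusted p = 6.33e-08), each above the 0.80 of Pirb alone.

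Lilrb4a encodes the inhibitory receptor gp49B, whose ligands are reported to include an integrin and fibronectin. It had 21537, 21600 and 23079 normalized counts in sham- and 63134, 59370 and 61061 in EV-treated cultures. The fold change was 2.77 (log2 1.47, SE 0.0524, adjusted p = 4.85e-08). Its neighbour Lilrb4b, which encodes gp49A without an ITIM and was named after its values were seen, changed by the same log2 1.47, from 25861, 25523 and 28175 to 75367, 71864 and 73272 (adjusted p = 5.75e-08). Lilrb4a held 42.0% to 43.3% of the counts of the locus in all 6 libraries, with overlapping groups. Of the 31-base words of Lilrb4a 97.3% occur in another gene, and 94.9% occur in the overlapping gene model Gm49339, which itself rose by 1.22 on the log2 scale (adjusted p = 3.63e-05). The gene model Lilr4b, not matched to a counted gene, holds 41.9% of these words. The split of reads within the locus is therefore uncertain. Counts summed over Lilrb4a and Gm49339 rose by 1.44 (adjusted p = 8.18e-08). With Lilrb4b added to the sum by symbol, the rise was 1.46 (adjusted p = 5.73e-08).

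Pilra, an inhibitory receptor for sialylated proteins, was counted rarely. Normalized counts of 130, 85.8 and 101 in sham- and 60.9, 67.7 and 58.3 in EV-treated cultures gave a log2 fold change of -0.76 (SE 0.295, adjusted p = 0.0709), which did not pass. It rests on 61 to 144 counts a library. Pilrb1, its activating partner, named after its values were seen, went from 88.3, 82.1 and 103 to 218, 224 and 217 (log2 fold change 1.27, adjusted p = 0.000689). Pilra made up 41.6%, 39.5% and 37.4% of the counts of the 3 PILR rows in sham-treated and 15.1%, 17.7% and 14.2% in EV-treated cultures, without overlap. Zcwpw1 overlaps Pilra on the opposite strand and shares 14.8% of its words, and the sum of both gave a log2 fold change of -0.58 (adjusted p = 0.0534).

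**Figure D3:**
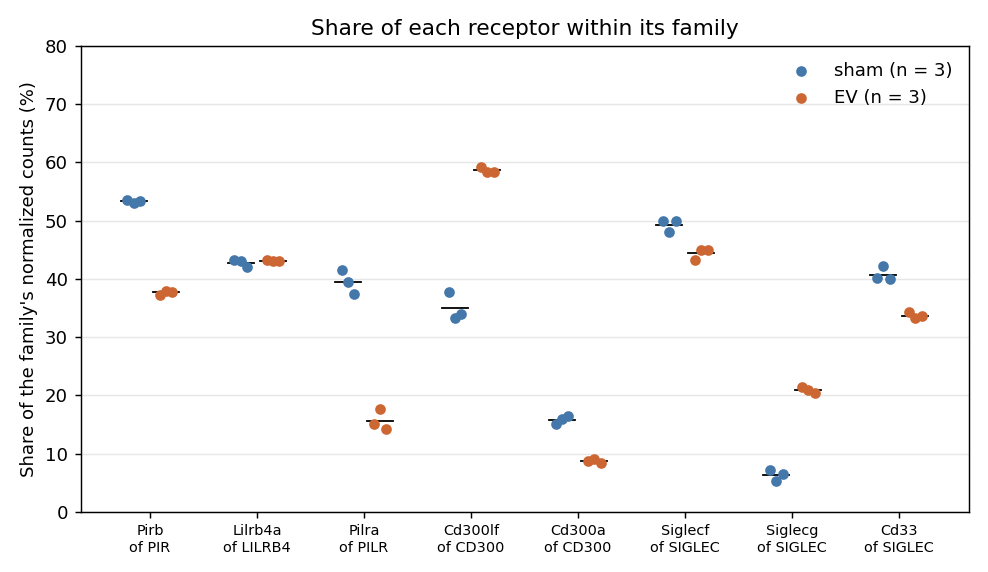
Share of 8 receptors in the normalized counts of their gene family (vertical axis, percent) in each sham-treated (blue) and EV-treated (orange) culture, with group means as black bars. Cd300lf and Siglecg took larger shares with EVs, Lilrb4a stayed at 42.0% to 43.3%, and Pirb, Pilra, Cd300a, Siglecf and Cd33 took smaller ones.

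Sirpa, the receptor that recognizes CD47 and restrains phagocytosis, differed little between the groups. Its normalized counts were 43915, 44899 and 43189 in sham- and 46854, 48687 and 50334 in EV-treated cultures. The log2 difference of 0.14 (SE 0.0488) had an adjusted p of 0.0426 and did not pass, and it turned to -0.0049 when libraries were scaled by their totals alone. The low-count relative Sirpb1c fell, from 46.9, 167 and 81.4 to 14.0, 16.3 and 7.83 (log2 fold change -2.94, adjusted p = 0.00275). Sirpa held over 99% of SIRP counts in every library, from 99.3% to 99.9%.

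Per kilobase of the longest coding transcript, the 10 receptors spanned a wide range of levels. In sham-treated cultures Lilrb4a led with 16000 ± 632 normalized counts per kb, followed by Sirpa with 11000 ± 216, Cd300lf with 4200 ± 341, Pirb with 3920 ± 98.6 and Siglecf with 2930 ± 218 (SD, n = 3 each). Cd33 stood at 1100 ± 31.2, Cd300a at 770 ± 32.2, Siglecg at 379 ± 75.4, Siglece at 64.0 ± 9.28 and Pilra at 40.9 ± 8.67 normalized counts per kb. Neighbours in this order were separate in every culture except Cd300lf and Pirb, whose ranges overlapped. In EV-treated cultures Lilrb4a reached 44300 ± 1370, Sirpa 12200 ± 437, Cd300lf 10900 ± 265, Pirb 6840 ± 246 and Siglecf 5280 ± 51.3 normalized counts per kb. Siglecg, at 2520 ± 110, moved from 8th to 6th place, ahead of Cd33 at 1820 ± 60.2 and Cd300a at 659 ± 19.8, while Siglece at 129 ± 18.3 and Pilra at 24.2 ± 1.88 stayed last. No neighbours overlapped after treatment. The place of Cd33 depends on its length, since with the median rather than the longest transcript its level was 3350 and 5570 per kb. With that length Cd33 stayed ahead of Siglecg, at 2520, in EV-treated cultures. In sham-treated cultures it then exceeded Siglecf, at 3280, and Pilra, at 121, exceeded Siglece, at 93.1.

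The partners through which these receptors signal were examined next. For this and the following lists, the share over all genes tested was 12.1% higher and 11.6% lower. Among 14 tested relatives that activate or lack an ITIM, 8 rose, 3 fell and 3 did not pass, with a median log2 fold change of 0.82. Of the adaptors that serve them, Tyrobp, which encodes DAP12, rose by 0.33 (adjusted p = 0.00143) and Hcst, which encodes DAP10, by 0.54 (adjusted p = 0.00583). Fcer1g, the Fc receptor gamma chain, did not pass, at a log2 difference of 0.07 (adjusted p = 0.493) that turned negative with library totals alone. The relatives that rose included the PIR-A genes Lilra6, Pira12, Pira13, Pira2 and Pira1, whose reads are split uncertainly from those of Pirb. They also included Lilrb4b, described above only as lacking an ITIM. Whether activating signalling changed was not tested.

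Downstream of the ITIM, 6 of 17 phosphatases and docking proteins rose and 5 fell, with a median of 0.27. Ptpn6, which encodes SHP-1, the main phosphatase bound by these receptors in myeloid cells, went from 8372, 7791 and 7543 to 11984, 12451 and 12743 normalized counts. All EV-treated cultures exceeded all sham-treated ones, with a log2 fold change of 0.65 (SE 0.0593, adjusted p = 1.87e-05). Ptpn11, which encodes SHP-2, differed by 0.35 on the log2 scale (adjusted p = 0.012) and Inpp5d, which encodes SHIP-1, by 0.14 (adjusted p = 0.0622), and neither passed. Inpp5d turned negative with library totals alone. Inppl1, which encodes the related inositol phosphatase SHIP-2, fell from 1090, 2220 and 1617 to 264, 280 and 267 normalized counts (log2 fold change -2.60, adjusted p = 1.19e-05). The macrophage markers fell in the same cultures, and their part in the fall of Inppl1 was not tested.

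Among SRC-family kinases, which phosphorylate the motifs, and other proximal signalling genes such as Syk, Btk and the phosphoinositide 3-kinase subunits, 5 of 13 tested rose, 1 fell and 7 did not pass, at a median of 0.14. Lyn, the SRC-family kinase most tied to ITIM phosphorylation, had 5857, 5848 and 6174 normalized counts in sham- and 6116, 6006 and 5990 in EV-treated cultures. These values overlapped (log2 fold change 0.02, adjusted p = 0.824), and the sign turned with library totals alone and with upper quartile scaling. Fyn, another SRC-family kinase, fell by 1.07 on the log2 scale (adjusted p = 0.00325). The part of the macrophage markers, which also fell, in the fall of Fyn was not tested. Pik3cd, the leukocyte phosphoinositide 3-kinase subunit acting on the activating side, rose from 7803, 7915 and 7403 to 21692, 22067 and 23457 (log2 fold change 1.54, adjusted p = 5.75e-08).

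**Figure D4:**
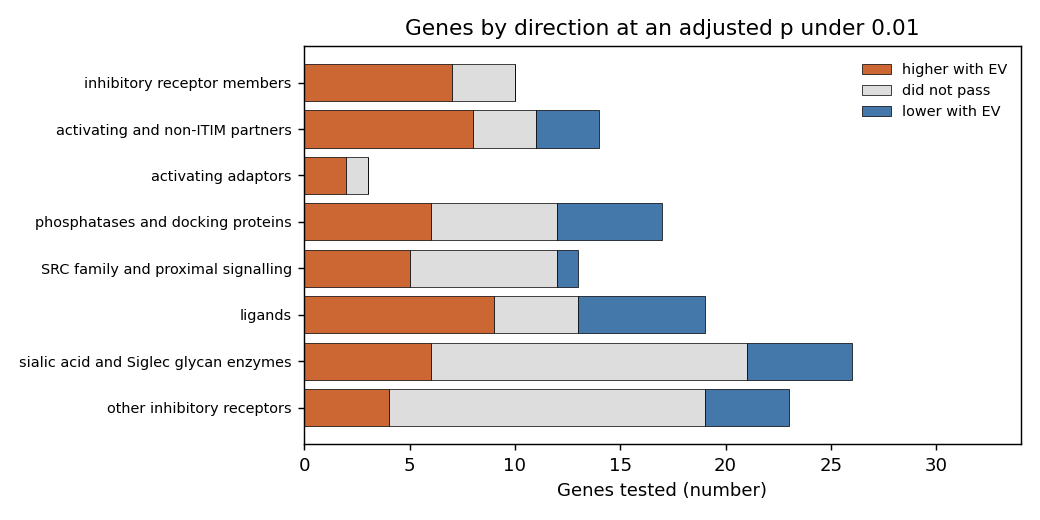
Number of tested genes in each group of receptor, adaptor, effector, ligand and enzyme genes that were higher with EVs (orange), lower (blue) or did not pass an adjusted p under 0.01 (grey). The 10 receptors gave 7 higher and 0 lower, while the ligand and phosphatase lists held genes in both directions.

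Ligands of these receptors were also measured in the same cultures, where the eosinophils themselves could present them. Of 19 tested, 9 rose, 6 fell and 4 did not pass, with a median log2 fold change of 0.45. Cd24a, a glycoprotein recognized by Siglec-G, went from 41116, 36049 and 40726 to 104190, 105470 and 100790 normalized counts. The groups were well apart, with a log2 fold change of 1.40 (SE 0.0598, adjusted p = 1.53e-07), so that Cd24a and Siglecg rose together. Cd47, the ligand of SIRPα, went from 12678, 11052 and 12255 to 24748, 24568 and 22967 (log2 fold change 1.01, SE 0.0647, adjusted p = 2.02e-06), whereas Sirpa did not pass. The ligand-list genes that fell furthest were Apoe, a lipoprotein also counted among the macrophage markers (-3.71, adjusted p = 1.22e-05), Pianp, a ligand of PILRα (-3.62, adjusted p = 0.000154), and Fn1, fibronectin (-2.24, adjusted p = 0.00435). Pianp had only 100 to 146 normalized counts in sham-treated cultures.

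Enzymes that make or trim the sialylated glycans seen by Siglecs changed in both directions, with 6 of 26 higher, 5 lower and 15 not passing, at a median of -0.15. St3gal4, a sialyltransferase that caps galactose, rose from 2075, 1719 and 1580 to 4775, 4700 and 4780 normalized counts (log2 fold change 1.41, adjusted p = 2.74e-06). St3gal5, which makes the ganglioside GM3, fell from 513, 972 and 1001 to 67.9, 90.9 and 85.3 (log2 fold change -3.34, adjusted p = 7.73e-06). St6gal1, which adds sialic acid in the linkage preferred by several B cell Siglecs, fell by 1.10 on the log2 scale (adjusted p = 0.00152). The sham-treated cultures spread more widely than the EV-treated ones for St3gal5 and St6gal1. The macrophage markers fell in the same cultures, and their part in the falls of St3gal5 and St6gal1 was not tested.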

How the data were processed

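RNA from 3 sham-treated and 3 EV-treated cultures was poly(A)-selected and sequenced, and groups came from the sample labels. The authors trimmed reads with Cutadapt, checked them with FastQC, and quantified genes with Salmon, and the submitters' processing notes name mm10. Versions, annotation and strand setting are not given in the sources used here. The counts used here are the authors' estimated counts of 16254 genes as deposited. The deposited normalized counts, a signal scaled per sample, entered a single alternative. A deposited table of the authors' own comparison (fold changes, p-values, a statistic and means) was not used.

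Estimated counts were rounded and compared with edgeR 4.0.16 (R 4.3.3), using TMM scaling, filterByExpr, the quasi-likelihood test and Benjamini-Hochberg adjustment over 13498 genes, with calls at an adjusted p under 0.01. For normalized counts, each rounded count was divided by its library's TMM effective size over the geometric mean of these sizes. The SE was obtained from the log2 fold change and the F statistic of the test. Libraries held 23697620 to 37874426 counts, so that counting error is small except for Siglece and Pilra. The chi-square per gene between cultures of a group was 8.37 to 31.8, and none was a duplicate. On simulated counts for these 13498 genes, the test called 100 of 100 genes changed 2-fold and 100 of 100 changed 4-fold, and 1 unchanged gene. The simulation gave every gene the same dispersion, which was set and not estimated from these cultures. Changes were placed only in genes above a minimum count. It therefore checks that the test runs correctly and does not give its power in the real data. The Pirb share of its family was compared by an exact permutation test in SciPy 1.17.1, and the other family shares are given without a test. Shared 31-base words, coding motifs, transcript lengths and coordinates were read from GENCODE vM21, which is on mm10.

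The receptors and all gene lists were chosen with earlier results of these data known. Named genes are the 10 receptors, up to 4 called genes per list with the largest absolute log2 fold change of at least 1, relatives sharing over 10% of a receptor's words, and the adaptors Tyrobp, Hcst and Fcer1g, the effectors Ptpn6, Ptpn11, Inpp5d and Lyn, and the ligands Cd47 and Cd24a. The marker lists are reported as counts and sums. Only Prg2, T cell markers, Adgre1, Ly6c2, Cyp11a1, Kit and Fcer1a are named from them, outside this rule. Lilrb4b, Pilrb1, Cd300lb, Pira1, Pira12 and Pira13 are also named outside it. Other scalings, no filter, DESeq2 1.42.0, limma 3.58.1, a replicate block, another threshold, other lengths, relatives summed and each culture left out were tried.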

Additional observations from a re-analysis of the deposited data

How the results depend on the processing

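With each culture in turn left out, between 2089 and 3531 genes were called, against 3204, and the 2089 without EV replicate 3 was the fit that moved the count by over 1.5 times. Calls at an adjusted p under 0.05 numbered 4840. The split of 1632 higher and 1572 lower became 1036 higher and 2342 lower with library totals alone, which also moved the median log2 fold change of all genes from -0.014 to -0.163. Of the 10 receptors, 6 to 9 were called across the alternatives, with 8 under library totals, upper quartile scaling and DESeq2, where Cd300a was added as lower, 6 without sham replicate 3, EV replicate 2 or EV replicate 3, where Siglece was lost, and 9 at an adjusted p under 0.05. Sirpa reversed to -0.0049 with library totals alone, and no other receptor changed sign under any alternative run. The cause was not tested. With the replicate number as a block, 3575 genes and 7 of the receptors were called, and no receptor gained or lost its call. Same-numbered cultures correlated at 0.117, 0.0846 and 0.0371 in their deviations over 13498 genes, and 5 of 6 cultures correlated best with their own number. The labels do not say whether the numbers pair the cultures, and these correlations did not settle it. The main fit left the cultures unpaired. Summing Pirb with its relatives moved its log2 fold change by over 1.5 times, to 1.23 by identifier and to 1.30 by symbol. The sums by symbol for Pirb and Lilrb4a and the Siglec shares with Cd22 and Mag were chosen after seeing the data. Siglece and Pilra are limited by counts of 83 to 317 and 61 to 144 a library.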

Other observations

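A further list of 23 inhibitory receptors and related surface molecules, among them the Siglecs Cd22 and Mag, was tested. Of these, 4 rose, 4 fell and 15 did not pass, with a median log2 fold change of -0.14. Over all genes tested, 12.1% rose and 11.6% fell. Cd244a, a SLAM-family receptor that can inhibit or activate, rose from 678, 592 and 577 to 1971, 2274 and 2164 normalized counts (log2 fold change 1.79, adjusted p = 5.5e-07). Cd72, an ITIM-bearing C-type lectin best known in B cells, fell from 590, 876 and 654 to 124, 183 and 147 (log2 fold change -2.22, adjusted p = 1.62e-05). Ly9, another SLAM-family receptor, fell by 1.99 on the log2 scale (adjusted p = 4.56e-05). Cd200, the ligand of the inhibitory receptor CD200R, fell from 149, 153 and 200 to 25.0, 44.6 and 22.6 (log2 fold change -2.44, adjusted p = 0.000332). These 4 genes kept their direction under every alternative run. The macrophage markers fell in the same cultures, and their part in the falls of Cd72, Ly9 and Cd200 was not tested.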
